A study of Mus musculus with 4 samples.

Results

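The fibroblast growth factor (FGF) genes considered here were the ligands, named *Fgf* followed by a number, the receptors *Fgfr1* to *Fgfr4* and *Fgfrl1*, and a set of feedback and target genes, *Spry1*, *Spry2*, *Spry4*, *Spred1*, *Spred2*, *Dusp6*, *Etv4* and *Etv5*. The rule uses gene names alone. The set held 35 of the 24637 genes of the table, with 22 ligand genes, 5 receptor genes and 8 feedback and target genes. *Spry3* was also named in the rule and is not analysed here.

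RNA-seq was performed on mouse embryonic stem cell (ESC) lines taken through cardiac differentiation. The question was how the cells differentiate without Taf4, a subunit of the general transcription factor TFIID. Cells were kept for 5 days as embryoid bodies (EBs) in serum and then on gelatin, and the label of all 4 libraries is day 9 of cardiac differentiation. There were 2 libraries from WT cells (genotype Taf4+/+) and 2 from cells labelled Taf4a-/- (genotype Taf4-/-), each from an independent line. The mutant allele is a null allele that lacks internal exons of *Taf4a* and is carried by every cell of the line, not by a chosen cell type. All lines shared growth on feeder fibroblasts before differentiation. The limma p-values below therefore rest on the spread between a pair of lines per genotype, together with a variance trend fitted over all tested genes.

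The deposited values are normalized counts, meaning reads on a gene divided by a size factor for each library. Between 21732746 and 27733034 reads lay on genes in each library. *Taf4a*, the targeted gene, was counted at 889 and 678 in WT against 1722 and 1799 in those labelled Taf4a-/- (normalized counts, replicate 1 before replicate 2 here and throughout). Its level was thus higher in the libraries labelled as mutant, and a count over the whole gene cannot show whether the deleted exons were read. For this reason the group is written as labelled Taf4a-/- wherever a direction is drawn. *Taf4b*, the paralogue, rose by 1.37 on the log2 scale (limma, adjusted p = 0.0143). All 10 cardiomyocyte markers of a list used as a check on the label "cardiac cells" were detected in WT and called lower in the libraries labelled Taf4a-/-, with summed levels of 22203 and 24218 normalized counts in WT against 1767 and 2054. In bulk RNA, fewer cells of a type and less RNA per cell cannot be told apart. WT cultures also held RNA of other cells, since fibroblast markers summed to 432885 and 599326, visceral endoderm and liver markers to 87753 and 69907 and macrophage markers to 10968 and 12974 normalized counts.

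FGFs are secreted proteins that bind receptor tyrosine kinases together with heparan sulphate. The activated receptor passes the signal through the adaptor Frs2, the GTPase Ras and the kinases Raf and Mek to Erk, and Erk in turn induces its own brakes, the Sprouty and Spred proteins and the phosphatase Dusp6, along with the ETS transcription factors Etv4 and Etv5. In ESCs Fgf4 is the principal autocrine ligand and drives exit from the naive state, whereas in the embryo Fgf8, Fgf10 and Fgf15 act in the progenitors that build the outflow tract and right ventricle.

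*Fgf4*, *Fgf3*, *Fgfr1*, *Etv4*, *Etv5* and *Dusp6* were higher in the libraries labelled Taf4a-/-, by 1.64-fold for *Fgfr1* up to 9.51-fold for *Fgf4*. *Fgf1*, *Fgf11*, *Fgfr2*, *Fgfr4* and *Fgfrl1* were lower, by 1.77-fold for *Fgfrl1* up to 6.02-fold for *Fgf1*. Of the 35 genes, 28 averaged 10 normalized counts or more and were tested with limma on log2(normalized counts + 1), and an adjusted p under 0.05 was taken as a call. The 11 calls were 39.3% of the tested FGF genes, beside 28.6% over all 16926 genes tested. In each direction, 6 FGF genes were called higher, where 11.3% of all tested genes were, and 5 were called lower, where 17.3% of all genes were. The median log2 difference was 0.39 over the tested FGF genes and -0.01 over all tested genes. The remaining 17 tested genes were not called, and 7 ligand genes with few reads were not tested.

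These counts depended on single libraries, as did the counts over all tested genes, which are given in the closing section. Without WT replicate 1 there were 14 FGF genes higher and 5 lower, without WT replicate 2 there were 5 higher and 3 lower, and without Taf4a-/- replicate 2 there were 3 higher and 4 lower. *Fgf4*, *Etv4*, *Fgf11*, *Fgfr2* and *Fgfrl1* were called in the main test and in each of 14 alternative settings. With quantile normalization, which moved the median of all genes to 0.11, 52.2% of all calls were in the higher direction instead of 39.4%, and 7 FGF genes were higher and 4 lower. Without the variance trend of limma, *Fgf3*, *Fgfr1*, *Fgfr4*, *Dusp6* and *Etv5* were not called. Pluripotent cell markers moved in the same direction as *Fgf4*, with 9 of 11 higher and summed levels of 5864 and 2948 normalized counts in WT against 17414 and 19586, and their part in the results was not tested.

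**Figure D1:**
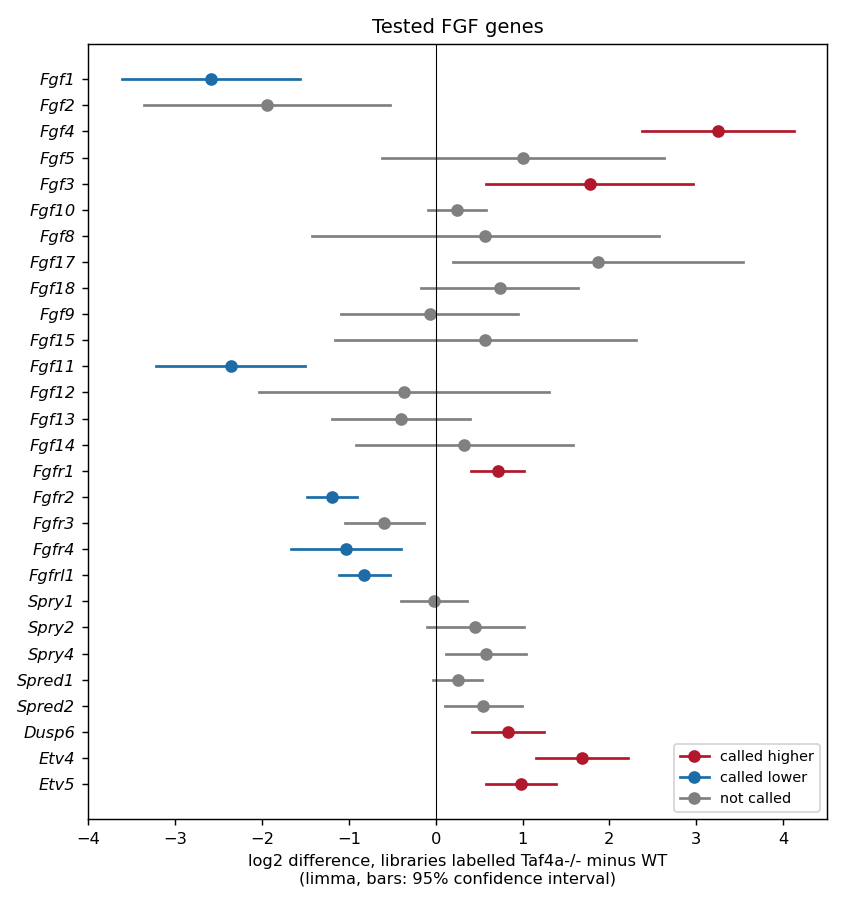
Log2 difference between the libraries labelled Taf4a-/- and WT for each of the 28 tested FGF genes (horizontal axis), fitted with limma on log2(normalized counts + 1). Points are estimates, bars are 95% confidence intervals, and colours mark the 6 genes called higher, the 5 called lower and the 17 not called. *Fgf4* lies furthest to the right at 3.25 and *Fgf1* furthest to the left at -2.59.

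Because Taf4 belongs to the complex that recognizes core promoters, the 250 bases upstream of a start site are shown for 4 genes called in all 14 alternative settings (13 for *Etv5*), namely the ligand gene *Fgf4*, the target gene *Etv5* (the more distal of its start sites) and the receptor genes *Fgfr2* and *Fgfrl1*. The sequences are from RefSeq on build GRCm38.p6, which differs from the build used for the counts. They run 5′ to 3′ on the gene's own strand, and capitals mark the GC box (GGGCGG or its reverse complement CCGCCC, the site of Sp1-type factors), the ETS core (CCGGAA or TTCCGG) and the TATA-like letters TATATA. The *Fgf4* window is chr7:144861136-144861385 (plus strand), the *Etv5* window chr16:22439571-22439820 (minus strand), the *Fgfr2* window chr7:130266809-130267058 (minus strand) and the *Fgfrl1* window chr5:108693979-108694228 (plus strand).
Fgf4: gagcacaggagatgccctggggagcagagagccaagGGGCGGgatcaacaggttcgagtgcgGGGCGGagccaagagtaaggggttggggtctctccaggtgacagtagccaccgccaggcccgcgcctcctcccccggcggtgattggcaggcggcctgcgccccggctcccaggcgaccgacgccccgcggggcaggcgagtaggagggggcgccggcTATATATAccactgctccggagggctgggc
Etv5: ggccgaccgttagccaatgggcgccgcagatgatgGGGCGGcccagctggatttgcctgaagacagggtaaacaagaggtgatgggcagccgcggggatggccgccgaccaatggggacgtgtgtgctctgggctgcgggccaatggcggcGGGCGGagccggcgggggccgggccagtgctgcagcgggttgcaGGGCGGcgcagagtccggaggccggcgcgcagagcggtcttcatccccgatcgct
Fgfr2: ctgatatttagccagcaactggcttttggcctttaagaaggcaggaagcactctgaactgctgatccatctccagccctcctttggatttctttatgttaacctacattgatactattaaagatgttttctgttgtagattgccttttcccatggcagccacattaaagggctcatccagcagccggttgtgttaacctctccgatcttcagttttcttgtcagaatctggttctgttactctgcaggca
Fgfrl1: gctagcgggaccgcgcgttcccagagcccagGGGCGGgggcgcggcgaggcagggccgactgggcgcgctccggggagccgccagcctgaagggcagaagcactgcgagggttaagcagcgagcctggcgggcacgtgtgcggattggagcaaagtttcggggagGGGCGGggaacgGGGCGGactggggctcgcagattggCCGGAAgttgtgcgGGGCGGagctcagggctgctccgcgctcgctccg
The *Fgf4* window held 2 GC boxes far upstream and the letters TATATA 2 times in overlap close to the start. There were 3 GC boxes in the *Etv5* window and 4 GC boxes with 1 ETS core in the *Fgfrl1* window, whereas none of these letters was present in the *Fgfr2* window. GC content was 71.2% for *Fgf4*, 71.2% for *Etv5*, 73.6% for *Fgfrl1* and 44.0% for *Fgfr2*. The window of *Fgf11*, also called in all 14 alternative settings, is not shown and held no GC box (GC content 51.2%). The other *Etv5* window held none either (62%). The windows of *Fgf3* (GC content 55.2%) and *Dusp6* (56.4%), both called higher in the main test, are also not shown. They held no GC box, ETS core or TATATA.

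Upstream windows were matched for 26 of the 35 FGF genes, which had 34 windows because some have several start sites. A GC box was present in 22 of these windows (64.7%), beside 32.7% of the 32851 windows of all genes. Among the 9 windows of called FGF genes, 4 held a GC box. An ETS core was present in 4 windows (11.8%, beside 12.03% of all windows). The TATA box TATAAA or its complement TTTATA was found in 1 window (2.94%, beside 12.4%), and TATATA, searched after the sequences had been seen, in 1 window (2.94%, beside 5.25%). These shares describe letters in windows and not binding.

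*Fgf4*, the autocrine ligand of pluripotent cells (ENSMUSG00000050917, chr7:152047291-152051148, plus strand, NCBIM37), had a level of 232 in WT replicate 1 and 109 in WT replicate 2, against 1324 in Taf4a-/- replicate 1 and 1752 in Taf4a-/- replicate 2 (normalized counts). Both libraries labelled Taf4a-/- lay well above both WT libraries. The means (± SD, n = 2 libraries per genotype) were 171 ± 87.1 in WT against 1538 ± 302 in those labelled Taf4a-/-, a log2 difference of 3.25 (SE 0.36, limma adjusted p = 0.00326). The log2 difference was 2.71 against WT replicate 1 alone and 3.79 against WT replicate 2 alone. As the genotypes hold 2 libraries each, an exact permutation test of any single gene cannot give a p under 0.333. Groups that do not overlap, here and below, therefore carry little weight by themselves. The share of such genes among all tested genes was not computed.

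*Fgf3*, a ligand of ear and hindbrain development that neighbours *Fgf4* on the same strand (chr7:152023988-152030341, NCBIM37), had 78.0 and 28.1 normalized counts in WT against 177 and 149 in those labelled Taf4a-/-. The groups did not overlap, but the WT libraries differed from each other by 2.78-fold. The log2 difference was 1.77 (SE 0.49, adjusted p = 0.0416 in limma), and it was 1.05 and not called without WT replicate 2, 1.65 and not called without Taf4a-/- replicate 1, and 1.89 and not called without Taf4a-/- replicate 2. The next gene of this cluster, *Fgf15* (chr7:152082437-152086858), a ligand of the pharynx and the embryonic gut, had 558 and 105 normalized counts in WT against 316 and 410 in those labelled Taf4a-/-. For *Fgf15* the groups overlapped, because both libraries labelled Taf4a-/- fell between the WT values, and 478 of its exon bases lie opposite an antisense gene. Of the 3 neighbouring genes, *Fgf4* and *Fgf3* were thus called and *Fgf15* was not.

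**Figure D2:**
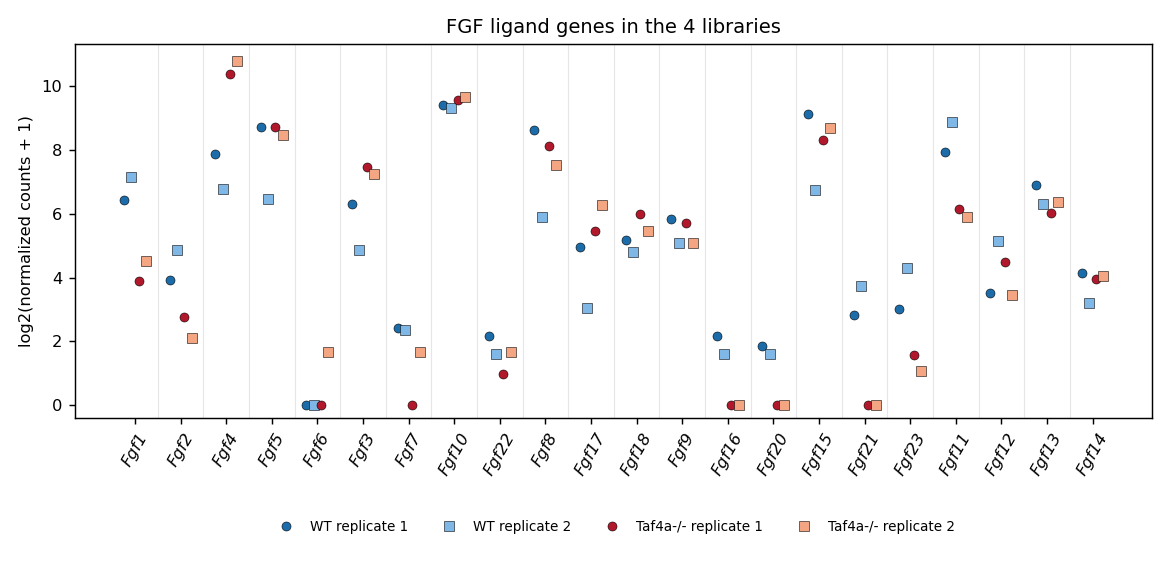
Levels of the 22 FGF ligand genes in each of the 4 libraries, as log2(normalized counts + 1) on the vertical axis, ordered by subfamily. Circles are replicate 1 and squares replicate 2, in blue for WT and in red for the libraries labelled Taf4a-/-. *Fgf4* and *Fgf3* are higher and *Fgf1* and *Fgf11* lower in both libraries labelled Taf4a-/-, whereas for *Fgf5*, *Fgf8* and *Fgf15* a WT library lies on each side of at least 1 of them.

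*Fgf1*, an acidic FGF without a signal peptide that binds all receptors (ENSMUSG00000036585), had 85.04 and 142 normalized counts in WT against 13.7 and 22.1 in those labelled Taf4a-/-. Both libraries labelled Taf4a-/- were below both WT libraries. The log2 difference was -2.59 (SE 0.42, limma adjusted p = 0.00933), and the estimate was -2.22 and not called without WT replicate 2. Its nearest relative *Fgf2*, the basic FGF, had 14.0 and 28.1 normalized counts in WT against 5.87 and 3.32 in those labelled Taf4a-/-. These groups did not overlap either, but with so few reads the log2 difference of -1.94 missed the threshold (95% confidence interval -3.36 to -0.52, adjusted p = 0.0520). Of the *Fgf2* exons, 297 bases are shared with other annotated genes, and the libraries carried no strand information. Reads there cannot be assigned with certainty.

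*Fgf11* belongs to the FGF homologous factors, which stay inside the cell and modulate voltage-gated sodium channels instead of binding FGF receptors. It had 241 and 464 normalized counts in WT against 70.5 and 58.6 in those labelled Taf4a-/-. Even the lower WT library was well above both libraries labelled Taf4a-/-, and the log2 difference was -2.36 (SE 0.35, limma adjusted p = 0.00726). The 3 other homologous factors were not called. *Fgf13* had 119 and 77.9 against 64.6 and 81.8 normalized counts, with a log2 difference of -0.40 and an interval of -1.20 to 0.39. *Fgf12* (-0.36, interval -2.03 to 1.31) and *Fgf14* (0.33, interval -0.92 to 1.58) were measured at 8.31 to 34.3 normalized counts, where the intervals leave changes of either sign. *Fgf13* is X-linked. *Xist*, which is transcribed from the inactive X, had 6.14 and 7.27 normalized counts in WT against 217 and 6470 in those labelled Taf4a-/-. The part of this difference in the values of *Fgf13* and of the other FGF genes was not tested.

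*Fgf8*, *Fgf5*, *Fgf15* and *Fgf17*, grouped after their values had been seen, separated the WT libraries from each other more than the genotypes. *Fgf8*, a ligand of the primitive streak, the pharynx and the second heart field, had 393 and 58.2 normalized counts in WT against 277 and 184 in those labelled Taf4a-/-. WT replicate 1 was 6.75-fold above WT replicate 2, and both libraries labelled Taf4a-/- lay between them. *Fgf5*, a marker of the primed epiblast, had 419 and 87.3 normalized counts in WT against 420.0 and 353 in those labelled Taf4a-/-, so that only WT replicate 2 stood apart. *Fgf17*, a relative of *Fgf8*, had 29.8 and 7.27 normalized counts in WT against 43.1 and 76.3 in those labelled Taf4a-/-, and its groups did not overlap.

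WT replicate 1 was above WT replicate 2 by 5.32-fold for *Fgf15*, 4.80-fold for *Fgf5* and 4.10-fold for *Fgf17*. Over all tested genes the median absolute log2 difference between the WT libraries was 0.26, and it was 0.16 between the libraries labelled Taf4a-/-. None of the 4 genes was called over all libraries, where the log2 difference and its 95% confidence interval were 0.57 (-1.43 to 2.57) for *Fgf8*, 1.00 (-0.62 to 2.63) for *Fgf5*, 0.57 (-1.16 to 2.30) for *Fgf15* and 1.87 (0.20 to 3.54) for *Fgf17*. Against WT replicate 2 alone all 4 were called higher, at 1.94, 2.13, 1.77 and 2.82 in the same order. Against WT replicate 1 alone none was called, and the estimates for *Fgf8*, *Fgf5* and *Fgf15* were -0.80, -0.12 and -0.63. Primitive streak and epiblast markers also differed between the WT libraries, with summed levels of 2681 and 745 normalized counts, a ratio of 3.60, against 4162 and 3281 in the libraries labelled Taf4a-/-. *Pou3f1* of that list was at 0 in both WT libraries and at 1.96 and 0 normalized counts in the others, and 3003 of its exon bases lie under a second *Pou3f1* entry of the annotation, so its reads may not have been assigned. The part of these cells in the ligand values was not tested.

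**Figure D3:**
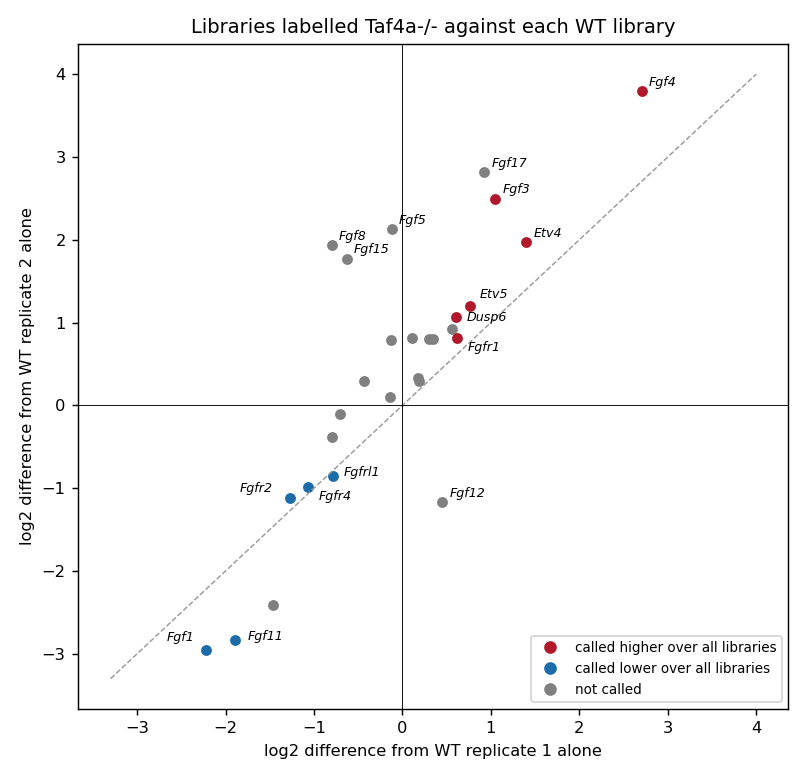
Log2 difference of the libraries labelled Taf4a-/- from WT replicate 1 alone (horizontal axis) and from WT replicate 2 alone (vertical axis) for the 28 tested FGF genes. Each point is a gene, coloured by its call over all 4 libraries, and the dashed line marks equal differences. *Fgf8*, *Fgf5* and *Fgf15*, and also *Fgf9*, *Fgf14* and *Spry1*, are negative on the horizontal and positive on the vertical axis. *Fgf12* has the reverse signs, whereas the 11 called genes have the same sign on both.

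*Fgf10*, the ligand of lung, limb and second heart field mesenchyme, varied little over the libraries, with 679 and 629 normalized counts in WT against 747 and 800 in those labelled Taf4a-/-. Its log2 difference was 0.24 with an interval of -0.09 to 0.58, so a change as large as that of *Fgf4* or *Fgf3* is outside it. *Fgf18*, a ligand of bone and lung, had 35.1 and 27.0 against 62.7 and 43.1 normalized counts (0.74, interval -0.17 to 1.64). *Fgf9*, a ligand of the epicardium and lung mesothelium, had 56.1 and 33.2 against 50.9 and 33.2 normalized counts, and its groups overlapped fully (-0.07, interval -1.09 to 0.95).

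Of the other ligand genes, 7 were near the limit of detection. *Fgf21*, an endocrine ligand of liver and fat, had 7 and 12 reads in WT against 0 and 0 in those labelled Taf4a-/-, which is at least 3.10-fold lower when a group at 0 is set to the level of 3 reads per library. *Fgf23*, the phosphate-regulating hormone, had 8 and 18 reads in WT against 2 and 1, a ratio of 7.96 with a 95% interval of 2.44 to 41.1 that covers counting error only. *Fgf7*, the keratinocyte growth factor, had 5 and 4 reads against 0 and 2 (ratio 4.13, interval 0.856 to 39.3). *Fgf16* and *Fgf20*, both of the *Fgf9* subfamily, had 6 and 5 reads in all over WT and 0 in the libraries labelled Taf4a-/-, while *Fgf22* had 6 against 3 and *Fgf6*, a ligand of muscle, 0 against 2. With so few reads no difference was readable for *Fgf16*, *Fgf20*, *Fgf22* and *Fgf6*.

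To compare ligand genes with each other, normalized counts were divided by exon length in kb. Exon bases shared with other genes were kept in that length. The 18 secreted ligands summed to 1133 and 433 normalized counts per kb in WT against 1323 and 1423 in those labelled Taf4a-/-. *Fgf4* made up 6.77% and 8.32% of that sum in WT and 33.0% and 40.6% in the libraries labelled Taf4a-/-, where it was the largest share. In WT replicate 1 the largest shares were *Fgf15* at 27.3% and *Fgf8* at 25.7%, and in WT replicate 2 the largest was *Fgf10* at 31.6%. The WT libraries therefore differed from each other in their leading ligand. In the libraries labelled Taf4a-/-, *Fgf15* (13.2% and 15.9%), *Fgf8* (15.5% and 9.56%), *Fgf5* (12.7% and 9.91%) and *Fgf10* (12.3% and 12.2%) followed *Fgf4* at closely spaced levels whose order differed between the libraries.

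Among the receptors, *Fgfr1*, the main receptor of ESCs and mesoderm, had 3822 and 3347 normalized counts in WT against 5614 and 6133 in those labelled Taf4a-/-. Both libraries labelled Taf4a-/- were above both WT libraries, and the log2 difference was 0.71 (SE 0.13, limma adjusted p = 0.0119). It was 0.65 and not called without Taf4a-/- replicate 2. The annotation lists a second *Fgfr1* entry and an antisense transcript over 886 of its exon bases, so reads there cannot be assigned with certainty.

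*Fgfr2*, the receptor of epithelia and of extraembryonic and primitive endoderm, went the other way, with 3858 and 3452 normalized counts in WT against 1564 and 1625 in those labelled Taf4a-/-. The values fell by more than the spread in either pair of lines, and the log2 difference of -1.19 (SE 0.12) had a limma adjusted p of 0.00251. Its upstream window is the one with the lowest GC content of the 4 shown above. Of its exon bases, 314 are shared with *Ctbp2*, and reads there cannot be assigned with certainty. Visceral endoderm and liver markers fell as well, with 9 of 10 called lower and summed levels of 2064 and 1457 normalized counts in the libraries labelled Taf4a-/-, where *Alb* was at 0, and their part in the *Fgfr2* value was not tested.

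*Fgfrl1*, a receptor-like protein that binds FGFs without a kinase domain, had 1604 and 1685 normalized counts in WT against 959 and 899 in those labelled Taf4a-/-. It was lower in both, with a log2 difference of -0.82 (SE 0.12, limma adjusted p = 0.00680). *Fgfr4*, a receptor of endoderm and liver, had 277 and 262 normalized counts in WT against 161 and 107 in those labelled Taf4a-/-. The groups did not overlap and the log2 difference was -1.03 (SE 0.26, adjusted p = 0.0321 in limma), but it was not called without WT replicate 1 (-0.99), without WT replicate 2 (-1.07) or without Taf4a-/- replicate 2 (-0.74). *Fgfr3*, known for restraining bone growth, had 1575 and 1178 against 818 and 996 normalized counts. Its groups did not overlap, and the log2 difference of -0.59 (interval -1.04 to -0.14) just missed the threshold with an adjusted p of 0.0587 in limma.

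**Figure D4:**
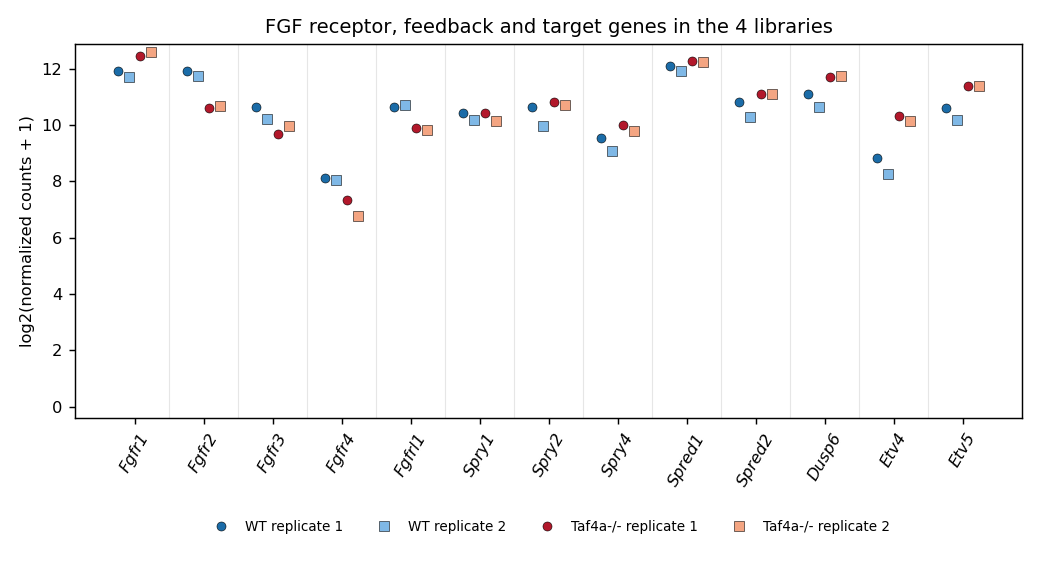
Levels of the 5 FGF receptor genes and the 8 feedback and target genes in each of the 4 libraries, as log2(normalized counts + 1) on the vertical axis. Circles are replicate 1 and squares replicate 2, in blue for WT and in red for the libraries labelled Taf4a-/-. *Fgfr1*, *Dusp6*, *Etv4* and *Etv5* are higher and *Fgfr2*, *Fgfr4* and *Fgfrl1* lower in both libraries labelled Taf4a-/-.

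Per kb of exon, the 4 kinase receptors summed to 1276 and 1103 normalized counts in WT against 1061 and 1144 in those labelled Taf4a-/-, so the summed ranges overlapped while the make-up differed. *Fgfr1* was 37.2% and 37.6% of the sum in WT and 65.6% and 66.5% in the libraries labelled Taf4a-/-. *Fgfr2* was 38.8% and 40.1% in WT against 18.9% and 18.2% in those labelled Taf4a-/-. The ratio of *Fgfr1* to *Fgfr2* per length was 0.958 and 0.938 in WT against 3.47 and 3.65 in those labelled Taf4a-/-. This 3.76-fold difference was far larger than the spread in either genotype (exact permutation test, two-sided, p = 0.333, the smallest that 2 against 2 libraries allow). It follows from the opposite differences of both genes given above, so it adds no further evidence. *Fgfr3* made up 17.9% and 15.5% in WT against 11.2% and 12.7% in those labelled Taf4a-/-, and *Fgfr4* was the least abundant in all 4 libraries, between 2.64% and 6.68%.

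**Figure D5:**
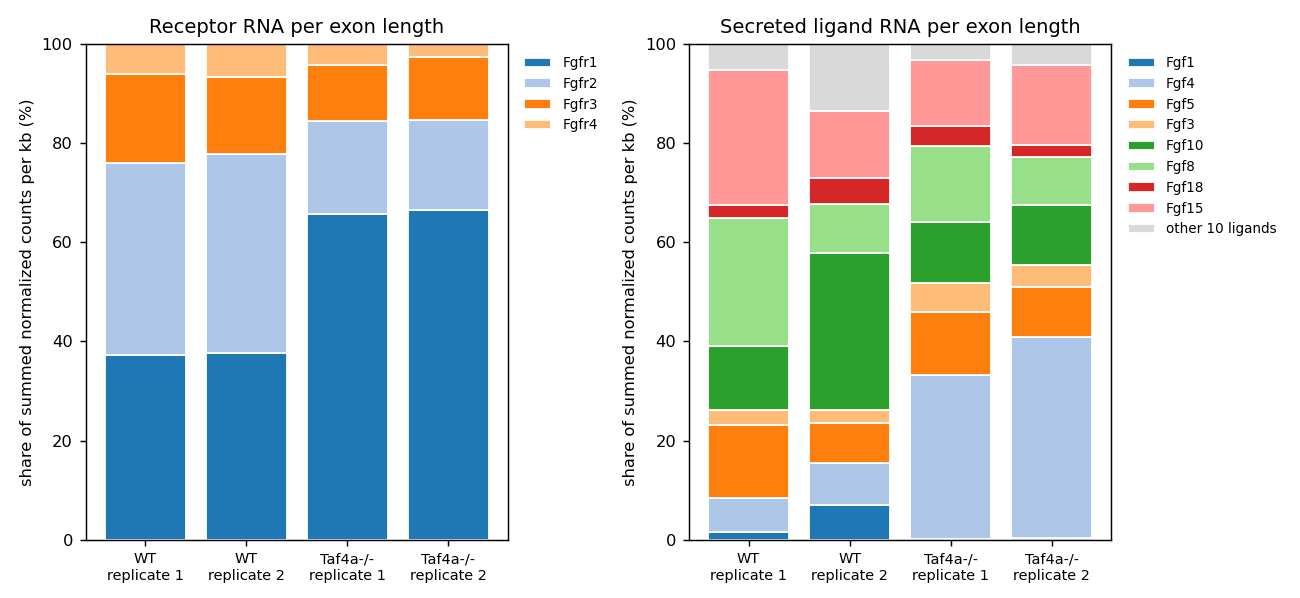
Shares of the summed normalized counts per kb of exon (vertical axis, percent) taken by each kinase receptor gene (left) and each secreted ligand gene (right) in the 4 libraries. Ligands that stay under 5% in every library are pooled in grey. *Fgfr1* takes 37.2% and 37.6% in WT against 65.6% and 66.5% in those labelled Taf4a-/-, and *Fgf4* takes 6.77% and 8.32% against 33.0% and 40.6%.

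Of the 8 genes that Erk signalling induces, 3 were called higher, where 11.3% of all tested genes were, and none lower. The 3 were the genes for the phosphatase and the ETS factors. None of the 5 Sprouty and Spred genes was called over all 4 libraries, and the difference between these groups of genes was not tested. *Etv4*, an ETS factor of the Pea3 group, had 452 and 304 normalized counts in WT against 1279 and 1115 in those labelled Taf4a-/-. Both libraries labelled Taf4a-/- were above both WT libraries, 3.22-fold by the fit (log2 difference 1.68, SE 0.22, limma adjusted p = 0.00468). *Etv5*, its close relative, had 1565 and 1155 normalized counts in WT against 2645 and 2682 in those labelled Taf4a-/-. The groups did not overlap and the log2 difference was 0.99 (SE 0.17, limma adjusted p = 0.0104). The ratio of *Etv4* to *Etv5* per length was 0.381 and 0.348 in WT against 0.639 and 0.549 in those labelled Taf4a-/-.

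*Dusp6*, the phosphatase that removes the activating phosphates from Erk, had 2202 and 1598 normalized counts in WT against 3300 and 3383 in those labelled Taf4a-/-. It was higher in both, at a log2 difference of 0.83 (SE 0.17, limma adjusted p = 0.0182), and was not called without Taf4a-/- replicate 2, where the estimate was 0.81. Per kb of exon its mean level was 680 normalized counts in WT against 1195 in those labelled Taf4a-/-, the highest mean of all 35 genes in both genotypes.

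Of the Sprouty proteins, which block the path from the receptor to Ras and Raf, *Spry1* overlapped between the genotypes, with 1376 and 1164 normalized counts in WT against 1372 and 1130.3 in those labelled Taf4a-/-. Its log2 difference was -0.02 with an interval of -0.40 to 0.36, which does not reach the estimates of *Etv4*, *Etv5* or *Dusp6*. *Spry4* had 747 and 543 normalized counts in WT against 1015 and 893 in those labelled Taf4a-/-, without overlap, at 0.58 (interval 0.12 to 1.04, adjusted p = 0.0660 in limma). It was called with the replicate block and with quantile normalization. *Spry2* had 1609.6 and 989 normalized counts in WT against 1797 and 1670.0 in those labelled Taf4a-/-. The groups did not overlap, and the log2 difference was 0.46 (interval -0.11 to 1.02), while the WT libraries were 0.70 apart.

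*Spred2*, a membrane-bound inhibitor of Ras to Raf signalling, had 1782 and 1253 normalized counts in WT against 2200 and 2177 in those labelled Taf4a-/-, a log2 difference of 0.55 (interval 0.11 to 0.99). *Spred1*, of the same kind, had 4316 and 3885 against 4898 and 4872 normalized counts, a log2 difference of 0.25 (interval -0.03 to 0.54). For both genes the libraries labelled Taf4a-/- were close to each other and above both WT libraries, and neither passed the threshold over all libraries. Without WT replicate 1 the estimates for *Spry2*, *Spry4*, *Spred1* and *Spred2* were 0.81, 0.81, 0.33 and 0.80. In the same order they were 0.11, 0.35, 0.18 and 0.30 without WT replicate 2, the WT library further from those labelled Taf4a-/-. The estimates thus depended on which WT library was kept.

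Among 80 other genes of the pathway, 77 were tested, of which 6 were higher and 16 lower, 28.6% in all and thus the share of all tested genes. Their median log2 difference was -0.16. These counts moved with single libraries too, as the counts over all tested genes did. Without WT replicate 1 there were 10 higher and 22 lower, without WT replicate 2 there were 3 and 4, without Taf4a-/- replicate 1 there were 1 and 8, and without Taf4a-/- replicate 2 there were 2 and 7.

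Of 10 receptor partners at the membrane, 2 were called higher, 3 lower and 5 not, beside 11.3% higher and 17.3% lower over all tested genes. *Klb*, the co-receptor for Fgf15 and Fgf21, had 399 and 440 normalized counts in WT against 97.9 and 47.6 in those labelled Taf4a-/- (log2 difference -2.60, limma adjusted p = 0.00579). *Ncam1*, an adhesion molecule that can bind FGF receptors, had 4490.5 and 8389 normalized counts in WT against 2021 and 2697 (-1.39, adjusted p = 0.0214 in limma). *Il17rd*, also called Sef, an inhibitor that Fgf signalling induces, had 2189 and 1367 normalized counts in WT against 4486 and 3353 in those labelled Taf4a-/-, the log2 difference being 1.16 (limma adjusted p = 0.0211). The groups did not overlap for these 3 genes, which were named for their large differences, so this adds no further evidence. *Kl*, the co-receptor for Fgf23, had 18.4 and 15.6 normalized counts in WT against 5.87 and 3.32 and was not called; it is named here after its values were seen.

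Of the 23 adaptors and kinases from Frs2 to Erk, none was higher and 4 (17.4%) were lower, beside 17.3% of all tested genes, with a median of -0.06. *Mapk3*, which encodes Erk1, was lower by a log2 difference of -0.75 (adjusted p = 0.00797 in limma), the adaptor gene *Gab2* by a difference of -0.73 (adjusted p = 0.0135) and the adaptor gene *Shc1* by -0.43 (adjusted p = 0.0447). Of 16 tested genes among the other Erk feedback and immediate target genes, 3 were higher, none lower and 13 not called, with a median of 0.24. These calls were 18.8% of the list, beside 28.6% of all tested genes in either direction and 11.3% in the higher direction. *Dusp4* (log2 difference 0.94, adjusted p = 0.0411) and *Dusp5* (0.74, adjusted p = 0.0138) encode nuclear phosphatases of Erk, and *Spred3* (0.82, adjusted p = 0.0229) the remaining Spred protein. All 3 were Erk inhibitors of the phosphatase or Spred type, but other genes of these types were not called. These were *Dusp7* (-0.41) and *Dusp9* (0.34) of the same list, and *Spred1* and *Spred2* above.

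Genes for heparan sulphate core proteins and for enzymes that act on the chains were called lower in 9 of 28 tested cases and higher in 1. These were 35.7% in all beside 28.6% of all tested genes, with a median of -0.28. The largest differences were those of *Hpse*, the heparanase, with 140.3 and 446 normalized counts in WT against 40.1 and 35.4 (-2.70, limma adjusted p = 0.0166), and of *Hs3st1*, a 3-O-sulphotransferase, with 412 and 773 against 169 and 79.6 (-2.27, limma adjusted p = 0.0155). *Sdc3*, a syndecan core protein, had 3992 and 4437 against 1874 and 2160.0 normalized counts (-1.06, limma adjusted p = 0.00396). All 3 were lower in both libraries labelled Taf4a-/-, and *Hpse* and *Hs3st1* differed between the WT libraries in the opposite sense to *Fgf8*, being higher in replicate 2. Markers of macrophages, of which all 10 were lower with summed levels of 183 and 219 normalized counts in the libraries labelled Taf4a-/- and *C1qa* at 0 there, and of fibroblasts, of which 8 of 10 were lower with summed levels of 50115 and 62465, moved in the same direction, and their part in these values was not tested.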

How the data were processed

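Polyadenylated RNA of the 4 libraries was sequenced from unstranded libraries. The authors called bases with CASAVA 1.8, aligned reads to mm9 with TopHat 1.3.3, counted reads per gene with HTSeq 0.5.3p1 and normalized with DESeq, as given in the submitters' processing notes. The deposited values are normalized counts per gene, that is, a read count divided by a size factor for each library. Dividing by the value of 1 read gave whole reads (within 0.01) for 100% of values, which restores 21732746 to 27733034 reads per library. Intervals on reads cover counting error only.

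Values were log2-transformed with a pseudocount of 1, which understates changes of low genes. Genes with a mean of at least 10 were fitted with limma 3.58.1 (R 4.3.3, variance trend, no covariate), with Benjamini-Hochberg adjustment over 16926 genes. The method was tested on simulated data with the same fixed spread setting for all genes, which does not cover the spread between lines seen here. Exon lengths, positions and overlaps came from the GENCODE vM1 annotation of NCBIM37 (the mm9 assembly). All 24637 identifiers matched, and 99.4% had the same symbol. Of the other pathway lists, the 3 called genes with the largest differences were named. The members and lists were chosen with earlier results of these data known. Replicate numbers did not pair the samples. Alternatives are given in the closing section.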

Additional observations from a re-analysis of the deposited data

How the results depend on the processing

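Each call was recomputed under other pseudocounts, filters, scalings and fits, and without each library in turn. Without the variance trend the counts were 2 FGF genes higher instead of 6, 1 other pathway gene higher instead of 6 and 5 lower instead of 16, and 856 genes higher and 1741 lower overall instead of 1906 and 2928. Leaving out 1 library at a time gave 3 to 14 FGF genes higher and 3 to 5 lower, 1 to 10 other pathway genes higher and 4 to 22 lower, and 624 to 2476 genes higher and 1222 to 3038 lower overall. In those fits a lone library was assumed to vary like the other genotype.

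Signs changed for genes that were not called. *Fgf9* was 0.27 with quantile normalization, and *Spry1* was 0.037 with equal totals and 0.028 with quantile normalization. Without 1 library at a time, *Fgf5* ranged from -0.12 to 2.13, *Fgf8* from -0.80 to 1.94, *Fgf15* from -0.63 to 1.77, *Fgf9* from -0.44 to 0.30, *Fgf12* from -1.17 to 0.45, *Fgf14* from -0.14 to 0.79 and *Spry1* from -0.16 to 0.12. The cause was not tested.

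With the replicate number as a block, 7 FGF genes were higher, *Spry4* being the addition, and 5 lower, with 1536 and 2657 over all genes. Deviations of same-numbered libraries correlated at 0.01, so the numbers were not treated as pairs. Voom on the recovered reads, chosen after seeing the data, gave 6 and 5 FGF genes. Without the filter on low values, *Fgf21* was also called lower. The edgeR and DESeq2 alternatives were not run. A pair of lines per genotype limits all tests, and low ligand genes are limited by depth.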

Other observations

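Over all tested genes, 11.3% were called higher and 17.3% lower in the libraries labelled Taf4a-/-. Of 8 second heart field and pharyngeal markers, 2 were lower and none higher, and the summed level was 8733 and 7454 normalized counts in WT against 6830 and 8672, with overlapping groups. None of 6 endothelial markers was called in limma, with sums of 11126 and 7324 against 5773 and 9689 normalized counts. Of 5 tested neural markers, 1 was higher.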
